A study of Mus musculus with 4 samples.

Results

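The insulin-like growth factor (IGF) axis was taken here as 10 mouse genes: the ligands Igf1 and Igf2, the receptors Igf1r and Igf2r, and the binding proteins Igfbp2, Igfbp3, Igfbp4, Igfbp5, Igfbp6 and Igfbp7. Its members were chosen by name, as all non-control array probes whose gene name in the scanner files was 1 of these symbols, which gave 21 probes of 41174. Of these, 12 probes of 7 genes were bright enough to be tested, among 24439 probes tested on the whole array. A probe was tested when it was well above background, by the flag of the scanner software, on both arrays of at least 1 cell line.

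IGF1 and IGF2 are secreted peptides related to insulin that promote growth and survival of cells. Both activate IGF1R, a receptor tyrosine kinase that signals through insulin receptor substrates, PI3-kinase and AKT, whereas IGF2R, the cation-independent mannose 6-phosphate receptor, takes IGF2 into the cell for degradation. The IGF-binding proteins hold the ligands in extracellular fluid and limit or prolong their access to the receptor, and in the mammary gland IGF1 is needed for the growth of ducts while IGFBP5 is known from involution after lactation.

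RNA was compared between a pair of stable lines of EPH-4, a non-malignant mouse mammary epithelial cell line. EV-50 carried the empty H1-2 vector with normal GR status by its label, and shGR-19 carried a short hairpin RNA vector against the glucocorticoid receptor (GR, gene Nr3c1) with a GR status labelled as depleted. Both lines had been selected as single clones with a puromycin resistance plasmid and were kept without serum or added glucocorticoid in 2 µg/ml puromycin, so that a difference between clones cannot be told apart from an effect of GR. For each of the 4 arrays, 2 per line, 300 ng RNA was labelled with Cy3, in duplicate by the protocol. No label says that the duplicates came from separate cultures, and p-values therefore measure only the spread between these arrays, which may be technical.

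Both the scanner files and a table of log2 values from GeneSpring were deposited, and the rows of that table have a median of 0. Scanner values are given below in log2 with the 75th percentile of the array set to 0, and table values in log2 with the median of each probe at 0. A probe was called at an adjusted p below 0.01 by limma, with Benjamini-Hochberg adjustment over all 24439 probes. With 2 arrays per line the smallest p of an exact permutation test is 0.333, and no such test was run.

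The sources did not show the same arrays as alike, and whether every scanner file belongs to the sample that its label names was not tested. Each scanner difference between the lines below rests on these labels. Among the scanner arrays, over 21173 probes well above background on all 4, the SD of the log2 difference was 0.225 between the arrays labelled replicate 1 of both lines, less than the 0.616 between the EV-50 arrays and the 0.705 between the shGR-19 arrays. In the deposited table it was 0.205 and 0.210 within the lines and 0.532 to 0.542 between them. Across the same probes, which are not independent, the difference between same-numbered table columns of both lines correlated with the matching scanner difference at r = 0.883 for replicate 2 and at r = 0.0548 for replicate 1. The GR transcript itself, by the brightest of 4 Nr3c1 probes, stood at 1.81 and 1.92 on the EV-50 scanner arrays and at 1.46 and -0.034 on the shGR-19 arrays labelled replicate 1 and 2, and fell by 1.94 (SE 0.048) on the log2 scale in the table (limma adjusted p = 0.00215). The lines thus differed less in Nr3c1 on the arrays labelled replicate 1 than on those labelled replicate 2, and the results below are given for both sources, with the difference within each pair of same-numbered scanner arrays.

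The probes are 60 bases long and several genes have more than 1, here numbered by brightness within a gene. The beginnings of the Igf1, Igf1r and Igfbp3 probes, 30 of their 60 bases, are shown because these genes had probes that differed in level or in difference. All positions are those of mm9, as in the annotation within the scanner files. The exon or UTR in which a probe lies was not determined here.
Igf1 probe 1 at chr10:87376418-87376477: tggatgagtgttgcttccggagctgtgatc
Igf1 probe 2 at chr10:87393516-87393575: cgcaggatcctttgctgcttgagcaacctg
Igf1 probe 3 at chr10:87396567-87396626: tacttactcaatacctaggtcaaatgttga
Igf1 probe 4 at chr10:87325382-87325441: taaaatagttgagtaaaatttgccactgat
Igf1r probe 1 at chr7:75376998-75377057: gtagtcgttgacgaagctctggtttacaag
Igf1r probe 2 at chr7:75371556-75371615: caacacttaatagcaacaggacactcgaga
Igf1r probe 3 at chr7:75372500-75372559: ctaggacttcttcatgggtctctcagttct
Igf1r probe 4 at chr7:75332515-75332574: tttctcaacaggcgaacgcaggcttagagt
Igfbp3 probe 1 at chr11:7106594-7106653: gcagttttccaaaaacacagatttcttttc
Igfbp3 probe 2 at chr11:7108469-7109478: tctataagaagaaacgatgccgcccttcca
Igfbp3 probe 3 at chr11:7111815-7111874: ctgtgacacaattcacaattccctatttaa
The Igf1 and Igf1r probes lie on the plus strand and the Igfbp3 probes on the minus strand. The listed position of Igfbp3 probe 2 spans 1010 bases, more than the length of the probe. Igf1 probe 4, Igf1r probe 4 and Igfbp3 probe 3 carry the name of the gene, and the files describe them as designed on cDNA clones.

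Igf1, the ligand with measurable RNA, differed far more between arrays of the same line than between the lines. Igf1 probe 1 read -3.86 and -0.42 on the EV-50 arrays labelled replicate 1 and 2 and -4.08 and -0.33 on the shGR-19 arrays. Both arrays labelled replicate 1 were low and both labelled replicate 2 were high, whichever the line. In linear terms the array labelled replicate 2 was 10.8-fold above its partner in EV-50 and 13.4-fold in shGR-19, and only 0.286% and 0.319% of all tested probes differed as much between these arrays.

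Igf1 probe 2 was printed in 10 spots on each array and shows how tight these readings were. The mean over the spots was -4.39 ± 0.126 on EV-50 replicate 1 and -0.63 ± 0.072 on EV-50 replicate 2 (SD over 10 spots). It was -4.52 ± 0.128 on shGR-19 replicate 1 and -0.30 ± 0.070 on shGR-19 replicate 2. The raw intensity of single spots ran from 21.6 to 29.5 and from 19.9 to 27.3 on the arrays labelled replicate 1, against 354 to 426 and 451 to 530 on those labelled replicate 2. No spot of the low arrays reached the range of the high ones, and on EV-50 replicate 1, 7 of the 10 spots were well above background while on the others all were. These 10 spots share 1 labelled RNA and describe the precision of the array, not of the line.

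**Figure D1:**
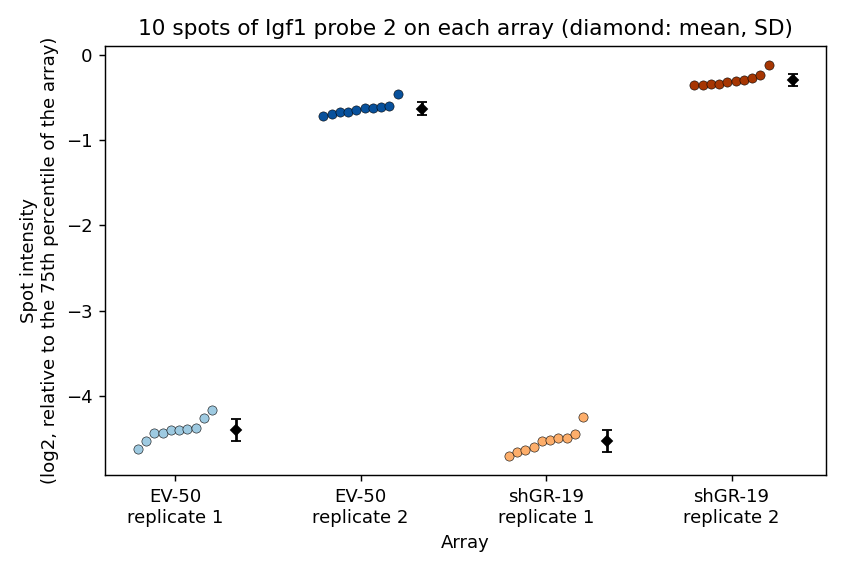
Intensity of the 10 spots of Igf1 probe 2 on each array (y axis, log2, 75th percentile of the array at 0; x axis, the 4 arrays; diamonds with bars, mean and SD over spots). The spots of both arrays labelled replicate 1 lie near -4.39 and -4.52 and those of both arrays labelled replicate 2 near -0.63 and -0.30.

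Between the lines, Igf1 did not pass the test in the scanner files. Igf1 probe 1 averaged -2.14 ± 2.43 for EV-50 and -2.21 ± 2.65 for shGR-19 (SD of 2 arrays each), a difference of -0.065 (SE 1.73), and Igf1 probe 2 averaged -2.51 ± 2.66 and -2.41 ± 2.99, a difference of 0.10 (SE 1.93). Within the pair labelled replicate 1 the difference was -0.22 for Igf1 probe 1 and -0.13 for Igf1 probe 2, and within the pair labelled replicate 2 it was 0.089 and 0.34. Leaving out 1 array moved the difference of Igf1 probe 2 from -2.01, without shGR-19 replicate 2, to 2.22, without shGR-19 replicate 1.

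The value table showed no such split between duplicates for Igf1. Igf1 probe 2 read -0.24 and -0.31 in EV-50 and 0.28 and 0.24 in shGR-19, without overlap, and rose by 0.54 (SE 0.054), or 1.45-fold, in shGR-19 (limma adjusted p = 0.00934). Igf1 probe 1 read -0.17 and -0.070 in EV-50 and 0.23 and 0.070 in shGR-19, a difference of 0.27 (SE 0.085) that was not called (limma adjusted p = 0.0860). The call of Igf1 probe 2 was lost when any of the 4 columns was left out, when dim probes were kept in the fit and when the replicate number was a block.

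Igf1 probe 3, the most downstream of the Igf1 probes by position, was dim. It read -6.62 and -7.87 on the arrays labelled replicate 1 of EV-50 and shGR-19, where it was not well above background, and -1.81 and -3.57 on those labelled replicate 2, where it was. It was lower in shGR-19 within both pairs of scanner arrays, by -1.25 and -1.75 in log2. The table had it at -0.83 and -1.12 in EV-50 and 0.83 and 0.90 in shGR-19, the opposite order, and in a fit of all probes differed by 1.84 (SE 0.126), which was not called (limma adjusted p = 0.0194). Igf1 probe 4 was well above background on no array.

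Igf2, the fetal growth factor expressed from the paternal allele, was not detected above background. Its probe 1 at chr7:149837115-149837174 and its probe 2 at chr7:149836673-149836709, both on the minus strand, were well above background on no array. Igf2 probe 2 was also printed in 10 spots, and its intensity in unflagged spots ran from 1.72 to 4.95 over the 4 arrays. No difference between the lines can be read for a probe at this level.

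Igf1r, the signalling receptor, was measured by 4 probes, and the fitted difference was above 0 for all 4 in both sources, but only Igf1r probe 1 passed the test, and only in the value table. Igf1r probe 1 read -0.42 and 0.0 on the EV-50 scanner arrays and -0.46 and 0.32 on the shGR-19 arrays. The highest reading was on shGR-19 replicate 2 and the lowest on shGR-19 replicate 1, so that the lines overlapped. The EV-50 mean was -0.21 ± 0.30 and the shGR-19 mean -0.070 ± 0.55 (SD of 2 arrays), a difference of 0.14 (SE 0.36), with -0.035 within the pair labelled replicate 1 and 0.32 within the other. Its table values were -0.30 and -0.27 in EV-50 and 0.29 and 0.27 in shGR-19, and it rose by 0.56 (SE 0.047), or 1.47-fold (limma adjusted p = 0.00738). That call, too, was lost when any column was left out, when dim probes were kept and under the replicate block.

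Igf1r probe 2 read -0.68 and 0.14 on the EV-50 scanner arrays and -0.62 and 0.49 on the shGR-19 arrays, again with both arrays labelled replicate 2 above both labelled replicate 1. Igf1r probe 3 read -3.52 and -2.20 in EV-50 and -3.02 and -1.69 in shGR-19, with the same order of arrays. Within the pairs of scanner arrays, Igf1r probe 2 differed between the lines by 0.059 and 0.36, and Igf1r probe 3 by 0.50 and 0.51, which made it the Igf1r probe whose pairs differed least from each other. By the table, Igf1r probe 2 differed by 0.36 (SE 0.068, limma adjusted p = 0.0312) and Igf1r probe 3 by 0.60 (SE 0.087, limma adjusted p = 0.0183), with no overlap between the lines, and neither was called.

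Igf1r probe 4 lies upstream of the other Igf1r probes, and was close to background. It read -6.63 and -4.95 on the EV-50 arrays and -4.18 and -5.48 on the shGR-19 arrays, and was not well above background on EV-50 replicate 1. The pairs of scanner arrays went opposite ways for it, with differences of 2.46 and -0.54. Its difference in the table was 0.11 (SE 0.056, limma adjusted p = 0.205).

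Igf2r, the receptor that removes IGF2, was measured by 1 probe on chromosome 17, minus strand, whose listed position from 12875253 to 12875263 covers 11 bases. It read 1.06 and 1.35 on the EV-50 scanner arrays and 1.00 and 1.5 on the shGR-19 arrays. The readings of the lines overlapped, and the difference was 0.042 (SE 0.28), with -0.065 within the pair labelled replicate 1 and 0.15 within the pair labelled replicate 2. The table columns read -0.015 and -0.079 in EV-50 and 0.11 and 0.015 in shGR-19, a difference of 0.11 (SE 0.062, limma adjusted p = 0.252). Neither source called it.

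**Figure D2:**
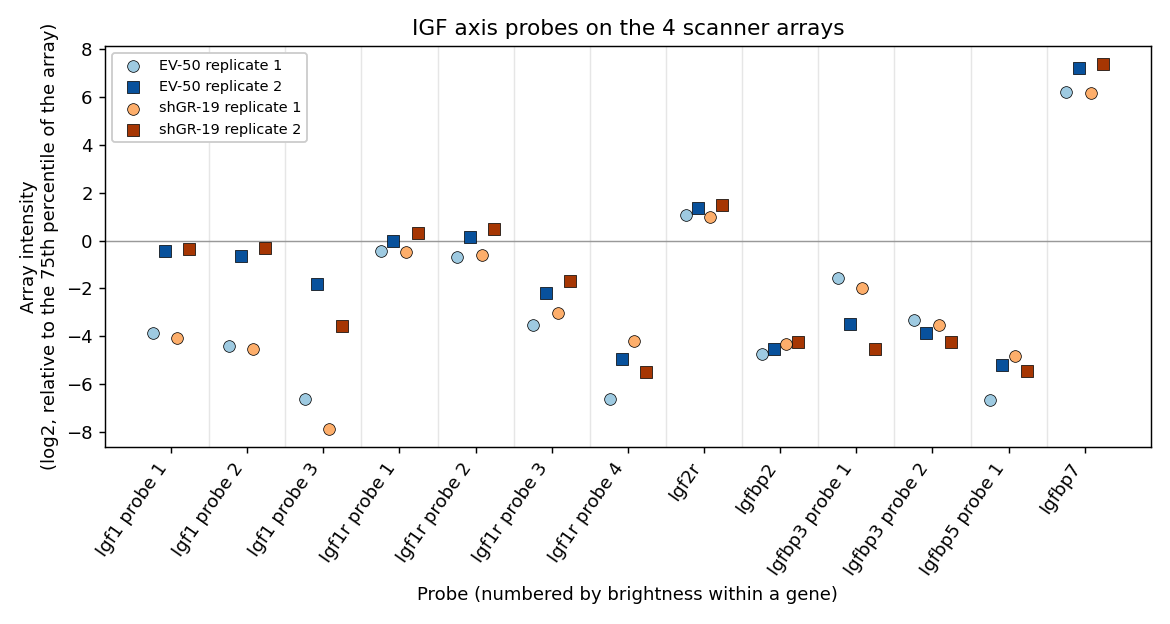
Scanner intensity of the 12 tested probes of the IGF axis and of Igf1 probe 3 (y axis, log2, 75th percentile of the array at 0; x axis, probes; circles, arrays labelled replicate 1; squares, arrays labelled replicate 2; blue, EV-50; orange and brown, shGR-19). The Igf1 probes separate circles from squares rather than colours, and the circles of both lines lie close together except for Igf1 probe 3, Igf1r probe 4 and Igfbp5 probe 1.

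Of the binding proteins, Igfbp7, the member that binds IGFs with low affinity and insulin as well, had a probe far above background on all 4 arrays. This probe, at chr5:77778355-77778414 on the minus strand, read 6.22 and 7.20 on the EV-50 arrays and 6.18 and 7.37 on the shGR-19 arrays. Arrays labelled replicate 2 were 1.97-fold and 2.29-fold above those labelled replicate 1, and the lines differed by 0.065 (SE 0.56), by -0.042 and 0.17 within the pairs labelled replicate 1 and 2. Table values of Igfbp7 were -0.10 and -0.14 in EV-50 and 0.10 and 0.13 in shGR-19, a difference of 0.24 (SE 0.048) that was not called (limma adjusted p = 0.0352).

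Igfbp3, the main carrier of IGFs in serum, had a probe that was lower in shGR-19 in both sources, without passing the test in either. Igfbp3 probe 1 read -1.57 and -3.50 on the EV-50 scanner arrays and -1.99 and -4.53 on the shGR-19 arrays. Here the arrays labelled replicate 1 were the high ones, 3.82-fold above their partner in EV-50 and 5.80-fold in shGR-19, the reverse of Igf1. Within the pairs shGR-19 differed from EV-50 by -0.42 and -1.03, and the fitted difference was -0.72 (SE 1.1). The value table gave 0.040 and 0.55 in EV-50 and -1.41 and -0.040 in shGR-19, so that its EV-50 columns were in the opposite order to the EV-50 scanner arrays. Its difference of -1.02 (SE 0.55), 2.02-fold lower in shGR-19, was the largest of the tested IGF axis probes in the table but had a large error (limma adjusted p = 0.235). It became -0.33 without shGR-19 replicate 1, smaller than that of Igf1r probe 3, and -1.70 without shGR-19 replicate 2.

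Igfbp3 probe 2 did not share that size of difference. It read -3.30 and -3.87 on the EV-50 arrays and -3.51 and -4.23 on the shGR-19 arrays, a difference of -0.28 (SE 0.37) in the fit and of -0.21 and -0.36 within the pairs. Its table values were -0.31 and 0.29 in EV-50 and -0.20 and 0.20 in shGR-19, with overlapping lines and a difference of 0.0091 (SE 0.27, limma adjusted p = 0.982). Igfbp3 probe 3 was well above background on no array.

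Igfbp2 was the tested member whose scanner arrays did not overlap between the lines. Its probe at chr1:72898677-72898736, on the plus strand, read -4.75 and -4.52 in EV-50 and -4.31 and -4.24 in shGR-19. It was not well above background on EV-50 replicate 1, so that it was tested only through shGR-19. It differed by 0.45 within the pair labelled replicate 1 and by 0.27 within the pair labelled replicate 2, with a fitted difference of 0.36 (SE 0.22), which became -0.027 with another background correction. Its table values were -0.21 and -0.11 in EV-50 and 0.11 and 0.16 in shGR-19, a difference of 0.29 (SE 0.063, limma adjusted p = 0.0399).

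Igfbp5, the binding protein of mammary involution, was at the edge of detection. Igfbp5 probe 1, at chr1:72907366-72907425 on the minus strand, read -6.67 and -5.20 in EV-50 and -4.84 and -5.44 in shGR-19, and was not well above background on EV-50 replicate 1. The pairs of scanner arrays disagreed in direction, with 1.83 and -0.23, and the fitted difference of 0.80 (SE 0.57) became -0.024 with the other background correction. The value table, with 0.13 and -0.80 in EV-50 and 0.089 and -0.089 in shGR-19, also overlapped (difference 0.34, SE 0.36, limma adjusted p = 0.515). Igfbp5 probe 2 was well above background on no array, and the same held for both probes of Igfbp4, a binding protein cleaved by the protease PAPP-A, and for the probe of Igfbp6, which prefers IGF2. Of these, Igfbp6 had the largest difference in the value table, 1.24 (SE 0.32) in a fit of all probes, and was not called (limma adjusted p = 0.0982).

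**Figure D3:**
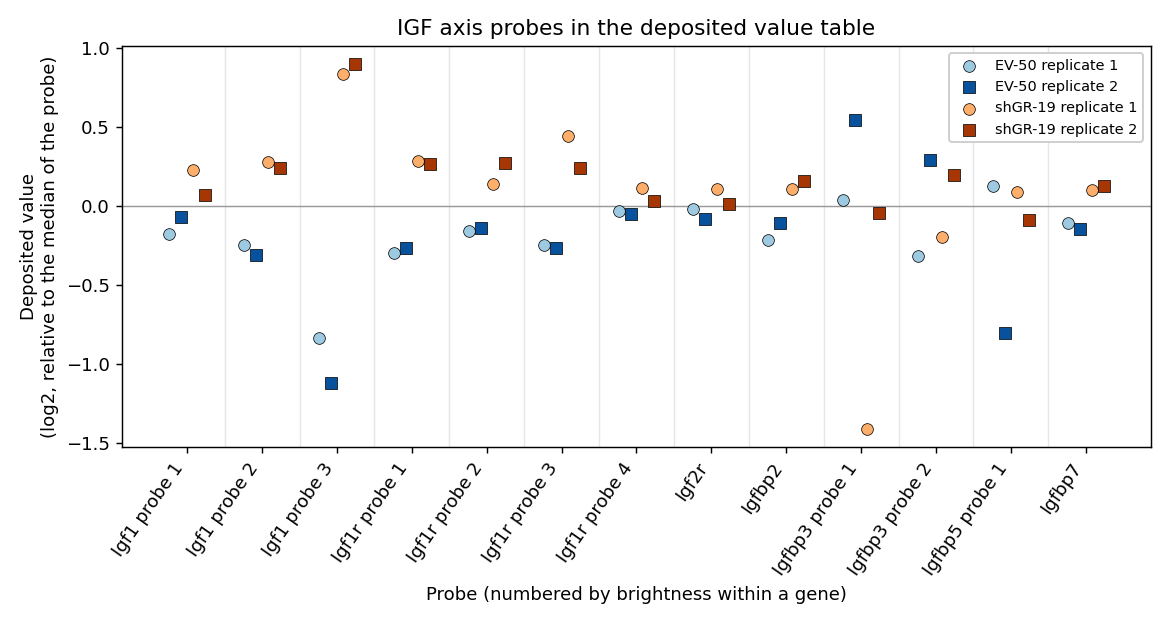
Deposited table values of the same probes (y axis, log2, median of the probe at 0; x axis, probes; symbols as for the scanner intensities). The shGR-19 columns lie above the EV-50 columns for most probes, Igfbp3 probe 1 lies the other way, and Igf1 probe 3 spans -1.12 to 0.90.

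Over the 12 tested probes, the scanner files gave 9 higher and 3 lower in shGR-19, with a median log2 difference of 0.12 beside 0.018 over all tested probes, of which 53.6% were higher. None of the 12 was called by limma, none passed an unadjusted p below 0.05 and none differed by more than 2-fold, where 0% and 0.855% of all tested probes passed the adjusted and the unadjusted limit. The smallest adjusted p of any probe on the array was 0.930. The lines did not overlap for 1 of the 12 probes, Igfbp2, against 17.9% of all. Igf1r probe 4, Igfbp2 and Igfbp5 probe 1 were tested only because both shGR-19 arrays passed the background filter. They count among the probes higher in shGR-19, so that the filter favoured this direction for them.

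The value table gave 11 probes higher, among them the same probes tested only through shGR-19, and 1 lower. The median was 0.28 beside 0.0087 over all tested probes, of which 51% were higher. There 2 of the 12 were called, both higher, beside 11.6% of all tested probes called in either direction, 5.53% called higher and 6.04% called lower. At an adjusted p below 0.05 there were 6 of the 12, beside 36.5% of all. An unadjusted p below 0.05 was reached by 7 of the 12 and by 48.4% of all, and 10 of the 12 did not overlap between the lines, as did 71.9% of all. The probe beyond 2-fold, Igfbp3 probe 1, was not called, whereas 4.26% of all tested probes were both called and beyond 2-fold. The called share of IGF axis probes was therefore near that of the whole array.

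**Figure D4:**
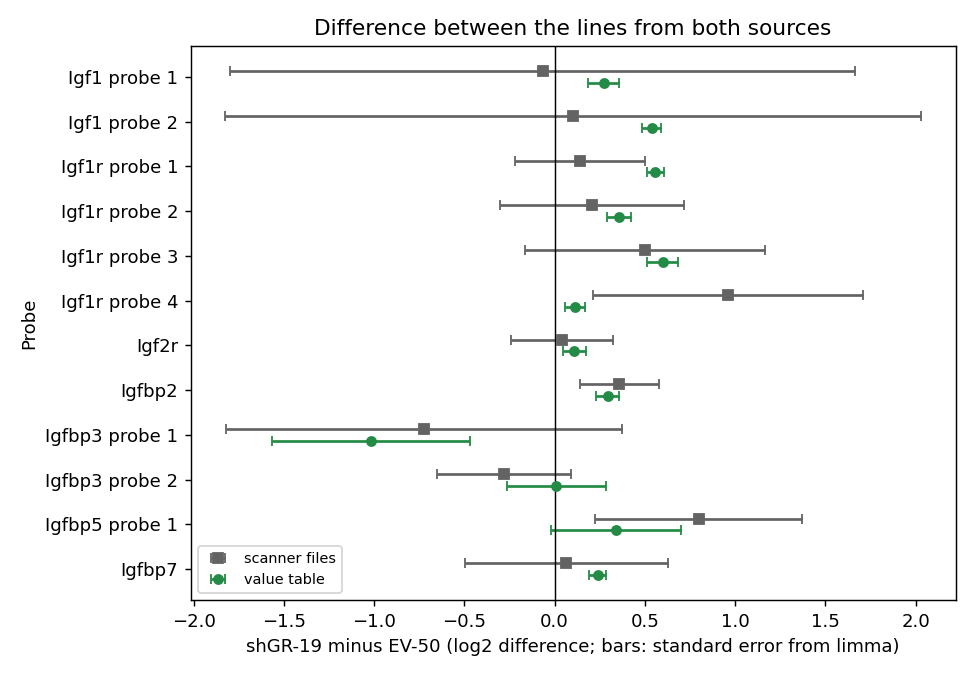
Difference between shGR-19 and EV-50 for the 12 tested probes (x axis, log2; y axis, probes; squares, scanner files; circles, value table; bars, standard error from limma). The bars of the scanner files cross 0 for 9 of the 12 probes, all but Igf1r probe 4, Igfbp2 and Igfbp5 probe 1, and those of the value table are narrow except for Igfbp3 and Igfbp5.

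The surroundings of the axis were described with 70 further genes in 4 lists, of which 69 were on the array and 58 had a tested probe. None of their 102 tested probes was called in the scanner files. Of the 102, 20 were called in the value table, 11 higher and 9 lower, beside 11.6% of all tested probes called, 5.53% higher and 6.04% lower. All 20 calls were lost when any column was left out, when dim probes were kept and under the replicate block, so that every pathway call below rests on the 4 columns together. The counts by list are few and are read against the same shares. By the brightest probe of each gene, 7 genes rose and 6 fell in shGR-19, 4 of them by more than 2-fold, and the median difference over the 58 genes was -0.041.

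Among signalling genes downstream of the receptors, 31 were tested, of which 3 rose and 1 fell. Foxo1, a transcription factor that AKT keeps out of the nucleus, rose by 0.74 (SE 0.058, limma adjusted p = 0.00646), and its second probe by 0.90. Ptpn1, a phosphatase that acts on the insulin and IGF1 receptors, rose by 0.67 (limma adjusted p = 0.00829), and Eif4ebp1, a translational repressor under mTOR, rose by 0.57 (limma adjusted p = 0.00943). Grb14, an adaptor that inhibits insulin receptor signalling, fell by 1.28 (SE 0.052, limma adjusted p = 0.00316). On the scanner arrays labelled replicate 1 these 4 genes differed between the lines by 0.081, 0.020, 0.21 and -0.11, and on those labelled replicate 2 by 0.63, 0.58, 0.51 and -1.36. The receptor of insulin itself, Insr, differed by 0.23 and was not called (limma adjusted p = 0.175). Of the 3 probes of the ribosomal S6 kinase gene Rps6kb1 the dimmest was called lower (-0.61) and the brightest was not (-0.22, limma adjusted p = 0.0537; -0.058 and -0.33 within the scanner pairs). Irs2 had no probe under that name.

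Of 13 tested genes for the supply of IGF1 or for cleavage of binding proteins, 2 rose and 2 fell. Plau, the urokinase that activates plasminogen, rose by 0.99 (SE 0.064, limma adjusted p = 0.00500), and Htra1, a secreted serine protease with an IGFBP-like domain, by 0.57 (limma adjusted p = 0.00876). Ghr, the growth hormone receptor through which Igf1 is induced in liver, fell by 0.96 (SE 0.060, limma adjusted p = 0.00486) by its brightest probe, while its other 3 probes, at -0.30, -0.47 and -0.40, were not called. Between the scanner arrays labelled replicate 1, Plau, Htra1 and Ghr differed by -0.084, -0.070 and -0.048, and between those labelled replicate 2 by 1.05, 0.50 and -0.98. Mmp7, the protease matrilysin, fell by 0.89 (SE 0.067, limma adjusted p = 0.00621) in the table, but read -4.19 and -4.80 on the EV-50 scanner arrays and -4.44 and -4.70 on the shGR-19 arrays, which overlap.

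Of 7 tested genes for the Igf2 locus and for regulators of IGF2 or its RNA, 1 was called lower and none higher. H19 of this list differed by 1.53 (SE 0.17) in the value table and was not called (limma adjusted p = 0.0114). Its scanner differences were -0.038 and 1.16 within the pairs. The other H19 probe differed by 0.31 in the value table, also without a call. Igf2bp1, which binds Igf2 mRNA, read 2.14 and 1.28 on the EV-50 scanner arrays and 2.16 and -0.35 on the shGR-19 arrays. It fell by 1.45 (SE 0.046) in the value table (limma adjusted p = 0.00253), as did another probe by 1.65, while the dimmest, at -0.68, was not called. M6pr, the cation-dependent mannose 6-phosphate receptor, had a dimmer probe that was called lower (-0.61), and its brightest was not (-0.43, limma adjusted p = 0.0109), with scanner differences of -0.024 and -0.40 within the pairs.

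Among 7 tested genes whose proteins share the IGFBP domain, 2 rose and 2 fell. The matricellular CCN genes did not move together, since Ctgf fell by 1.37 (SE 0.060, limma adjusted p = 0.00336) and Wisp2 by 1.07 (SE 0.060, limma adjusted p = 0.00427) while Wisp1 rose by 0.75 (SE 0.049, limma adjusted p = 0.00512). Crim1, a transmembrane protein with an IGFBP-like motif, rose by 0.87 (SE 0.058, limma adjusted p = 0.00534). On the scanner arrays labelled replicate 1 these 4 genes differed between the lines by 0.093, -0.042, -0.22 and -0.11, and on those labelled replicate 2 by -1.41, -1.22, 0.64 and 0.69.

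**Figure D5:**
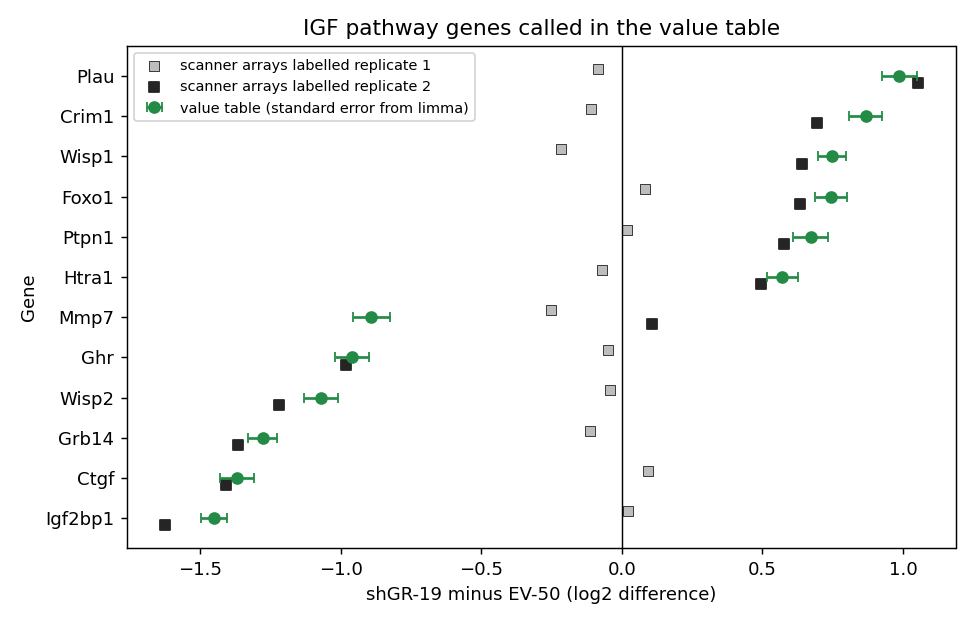
Called pathway genes, the 6 with the most positive and the 6 with the most negative difference (x axis, shGR-19 minus EV-50 in log2; y axis, genes; circles with bars, value table and standard error; grey squares, scanner arrays labelled replicate 1; black squares, those labelled replicate 2). The black squares lie near the circles for all genes but Mmp7, and the grey squares lie between -0.25 and 0.093.

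The promoters of all 10 members were found in a RefSeq table of GRCm38.p6, as 14 windows of 250 bases before a transcription start. The letters AGAACA, or TGTTCT on the other strand, which form each arm of the glucocorticoid response element, were in 2 of the 14 windows, 1 of Igf2 and 1 of Igfbp2, and in 16.1% of 32851 promoters. The whole palindrome, both arms with 3 free bases between them, was in 0 of the 14 and in 3 of all promoters. A match is a description of the letters and not of binding.

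The epithelial label was checked with 12 marker genes, of which 11 were well above background on all 4 arrays, and their summed linear level was 788 and 807 times the 75th percentile on the EV-50 arrays and 823 and 723 times on the shGR-19 arrays. By the table, 1 of the 11 tested was called, the basal keratin Krt14, which fell by 1.13 (SE 0.049, limma adjusted p = 0.00332). Trp63 stood at -0.40 and -0.90 by its probes without a call. Krt19, the marker not tested, was well above background on 2 arrays and stood at -2.76 in the table. It read -5.09 and -2.89 on the EV-50 scanner arrays and -5.14 and -6.59 on the shGR-19 arrays. Endothelial Pecam1, Cdh5, Emcn and Tie1, adipocyte Adipoq, Lep and Cfd, and immune Ptprc, Adgre1 and Itgam were well above background on no array. Fibroblasts are a source of IGF1 in the mammary stroma, and some of their markers were detected. Of 11 on the array 5 were well above background on all 4 arrays and Dcn was on none. The summed level of the fibroblast markers was 11.4 and 36.6 on the EV-50 arrays and 10.3 and 74.4 on the shGR-19 arrays labelled replicate 1 and 2. Pdgfrb read -2.20 and 1.78 in EV-50 and -2.0 and 3.94 in shGR-19, and Col1a2 read 0.68 and 1.56 in EV-50 and 0.64 and 4.93 in shGR-19. Both were higher on the arrays labelled replicate 2 in both lines, as Igf1 was. The same held for Fn1, at 3.18 and 4.90 in EV-50 and 3.01 and 4.60 in shGR-19. It also held for Col1a1, Pdgfra and Lum, which were not well above background on all 4 arrays. Others of the list were not higher there in both lines. Vim read -3.60 and -5.13 in EV-50 and -3.27 and -3.11 in shGR-19, Thy1 read -3.17 and -6.79 in EV-50 and -6.75 and -6.60 in shGR-19, and Twist1 lay between -1.94 and -1.72 on all 4 arrays. By the deposited table, 4 of the 6 tested fibroblast markers were called higher, beside 5.53% of all tested probes, and none was called lower. These were Col1a2 by 3.27, Pdgfrb by 2.03, Vim by 1.82 and Pdgfra, well above background on 3 arrays, by 1.16. Within the scanner pair labelled replicate 1 they differed by -0.043, 0.20, 0.33 and 0.74, and within the other by 3.37, 2.16, 2.02 and 1.16. Col1a1, which was not tested, stood at 5.57 in the table. Fn1 stood at -0.64, -0.65 and -0.52 by its 3 probes, without a call. Their part in the Igf1 values was not tested, and in bulk RNA more cells of a type and more RNA per cell cannot be told apart.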

How the data were processed

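Per the labels and the study's methods, Cy3-labelled RNA of EV-50 and shGR-19 was hybridized to 4 arrays of the Agilent Whole Mouse Genome design on 1 slide, read in 1 scan, so that no batch could be fitted. The authors deposited the intensity of each spot, background-subtracted by Feature Extraction 10.5.1.1 (submitters' processing notes) and not scaled between arrays. They also deposited log2 values from GeneSpring with each probe centred on its median over the arrays. Whether their steps before centring matched the scanner files is not given in the sources used here. The medians of the table's columns over all 41174 probes were 0.076, 0.038, -0.056 and -0.063 (EV-50 replicates 1 and 2, shGR-19 replicates 1 and 2).

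Each intensity was put on the log2 scale and the array's 75th percentile subtracted, after spots marked as outliers (74 to 139 per array) were left out and spots of 1 probe averaged. That percentile was 516 to 584, between 23290 and 27358 of 43379 spots were well above background, and none was saturated. The number of arrays limits the precision. shGR-19 was set against EV-50 by limma 3.58.1 (R 4.3.3; lmFit, eBayes), the threshold being the p of the study's methods with an adjustment that they do not name. The same 24439 probes entered the fit of the value table.

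All probes of the members are named. Of the pathway lists, the rule named the 6 largest increases and 6 largest decreases among genes called in the table and well above background on all 4 arrays, each by its brightest probe, with other probes where direction or call differ. Eif4ebp1, H19, Insr and Irs2 were named after their values were seen. The members and lists were chosen with earlier results of these data known. Alternatives changed the background correction (normexp, offset 50), the normalization (quantile, or a percentile over detected probes), the filter (none, or well above background on every array), the prior (intensity trend, robust; statmod 1.5.0), the block (replicate number), the arrays (each left out), the limit (unadjusted p below 0.01, adjusted p below 0.05) and the test (plain equal-variance). After seeing the data, leaving out both arrays of 1 replicate number and centring the table's columns were added.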

Additional observations from a re-analysis of the deposited data

How the results depend on the processing

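Counts of called probes did not move from 0 in the scanner files for the IGF axis or its pathway lists under any setting run on them, each array left out included (0 to 0), and became 2 and 20 in the value table. In the value table the 2 called IGF axis probes became 0 with all probes kept, under the replicate block, with the plain equal-variance test and with each column left out (0 to 0). They became 3 with probes well above background on all 4 arrays, where Igf1r probe 3 was called as well. With an intensity trend and robust prior they became 5, with Igf1r probes 2 and 3 and Igfbp7 added. They became 4 at an unadjusted p below 0.01 and 6 at an adjusted p below 0.05. The 20 called pathway probes became 0 under the same settings that gave 0 for the axis (each column left out: 0 to 0), 34 with probes well above background on all 4 arrays, 41 with the trend, 43 at the unadjusted and 48 at the wider adjusted limit. Centring the table's columns on their median, chosen after seeing the data, left 2 called axis probes and 22 pathway probes. The lost calls with 1 column left out go with fewer arrays in the fit, where a line with 1 array was taken to have the spread of its counterpart.

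Igf1 probe 1 went from -0.065 to 0.019 with normexp and to 0.27 in the value table, Igfbp2 from 0.36 to -0.027 and Igfbp5 probe 1 from 0.80 to -0.024 with normexp, and Igfbp3 probe 2 from -0.28 to 0.0091 in the value table. The cause was not tested. With each scanner array, or both of a replicate number (chosen after seeing the data), left out, the log2 difference ranged from -1.94 to 1.81 for Igf1 probe 1, -2.01 to 2.22 for Igf1 probe 2, -0.25 to 0.53, -0.35 to 0.76, -0.16 to 1.17 and -0.54 to 2.46 for Igf1r probes 1 to 4, -0.21 to 0.29 for Igf2r, -1.99 to 0.54 and -0.64 to 0.078 for Igfbp3 probes 1 and 2, -0.23 to 1.83 for Igfbp5 and -0.53 to 0.66 for Igfbp7. For Igf1r probe 4 and Igfbp5 the sign turned only without both arrays labelled replicate 1, and single arrays left out gave 0.12 to 1.80 and 0.063 to 1.53. In the table, with each column left out, it ranged from -1.70 to -0.33 for Igfbp3 probe 1, from -0.29 to 0.31 for Igfbp3 probe 2 and from -0.13 to 0.80 for Igfbp5. The calls of Igf1 probe 2 (0.50 to 0.57) and Igf1r probe 1 (0.54 to 0.57) were lost with each column left out.

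Same-numbered arrays deviated together in the scanner files (r = 0.574 over 24436 probes) and barely in the table (r = 0.0559). With only 2 pairs and no label that ties them, the numbers were not taken as a pairing, and the replicate block left 0 called probes in both sources. In the scanner files the smallest adjusted p over all tested probes was 0.930 by limma.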
